A study of Saccharomyces cerevisiae with 30 samples.

Results

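The 20S pre-rRNA of budding yeast (Saccharomyces cerevisiae) is the last precursor of 18S rRNA and ends in a 3′ extension that belongs to internal transcribed spacer 1 (ITS1). Here the extension was examined as the 212 nucleotides A1801 to C2012 of the deposited profiles, in which 18S takes the first 1800 positions. DMS-MaPseq was used, in which dimethyl sulfate (DMS) methylates A and C at the face used for base pairing and reverse transcriptase turns the methylated base into a mutation in the read. Members were the A and C of ITS1 with an effective depth (reads that could report a mutation at the position) of at least 1000 in all 24 libraries of precursor particles (pre-40S). There were 82 such nucleotides (54 A and 28 C), out of 92 A and C in ITS1 and 869 A and C with that depth in the whole reference. The 10 left out all lay from C1998 on, where depth fell away: the minimum was 1062 reads at A1997, the last one inside, and 986 reads at C1998, the first one outside.

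The groups were pre-40S from S15_YRR cells, with an altered ribosomal protein S15, in 3 replicates, pre-40S from Rio2_Δloop cells, with Rio2 lacking a loop, in 4, and pre-40S from WT cells in 5. All cells were taken in mid-log growth in YPD, a rich medium, and every pre-40S preparation was isolated by a Rio2-TAP handle, so it holds only particles that carry Rio2. Each biological replicate gave a library from particles treated with 1% DMS for 5 min at 30 °C and an untreated library (NC). Mature 40S subunits, in 3 replicates, served only as a control for depth. Whether the handle in Rio2_Δloop cells sits on the altered Rio2 itself, and whether a line is 1 clone, were not given in the sources used here.

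As background, ITS1 separates 18S from the next rRNA in the primary transcript, and cleavage at site A2 inside it leaves the 20S pre-rRNA in a particle that is exported to the cytoplasm. There the endonuclease Nob1 cuts at site D, between the last nucleotide of 18S and the first of ITS1, and the released ITS1 fragment is degraded by the 5′ exonuclease Xrn1. Rio2 is an ATPase of the kinase family that sits on the head of pre-40S, and S15 (gene RPS15) is a protein of the head. In the RefSeq annotation of the R64 assembly both annotated copies, ITS1-1 and ITS1-2, lie on chromosome XII and are 361 nucleotides long, so the 212 nucleotides studied here are its 5′ part. The letters come from the deposited profiles, whose genome build is not given in the sources used here, so positions are those of the rRNA.

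The whole spacer part is shown first, 5′ to 3′ as RNA, because every result refers to it. Capitals mark the 24 A and C whose mutation rate was higher with DMS than without it.
ITS1, A1801 to C2012: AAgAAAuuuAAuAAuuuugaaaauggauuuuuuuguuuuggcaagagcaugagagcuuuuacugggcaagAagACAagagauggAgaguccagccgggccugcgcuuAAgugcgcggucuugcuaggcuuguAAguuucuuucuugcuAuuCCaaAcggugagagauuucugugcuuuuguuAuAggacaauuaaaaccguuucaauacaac
The stretches that hold these nucleotides are repeated below in order along the spacer, since neighbouring A and C in them gave very different signals. They are named after the predicted fold described further on, and those named for a bulge, loop or hairpin include paired nucleotides beside it.
First 20 nucleotides after site D, A1801 to A1820: AAgAAAuuuAAuAAuuuuga
5′ strand of the central stem, A1871 to G1888: AagACAagagauggAgag
Hairpin at the tip, U1901 to G1916: ugcgcuuAAgugcgcg
3′ strand of the internal loop, U1929 to U1937: uuguAAguu
Bulge on the 3′ side, U1945 to C1957: ugcuAuuCCaaAc
Last 20 measured nucleotides, U1978 to A1997: uuguuAuAggacaauuaaaa

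Median effective depth over ITS1 ran from 2123.5 to 8611 reads in the 24 pre-40S libraries and from 9 to 99 reads in the 6 mature 40S libraries, too few for a rate there. Untreated mutation profiles of 18S put the pre-40S pairs into sets that crossed the groups: set 1 held S15_YRR replicates 1 to 3, Rio2_Δloop replicates 3 and 4 and WT replicates 4 and 5, set 2 held Rio2_Δloop replicates 1 and 2 and WT replicates 2 and 3, and WT replicate 1 stood alone. In WT replicate 1 the rates were on average lower with DMS than without it at ITS1 A, C, G and U alike, by 0.120, 0.540, 0.566 and 0.623 percentage points. Results that this pair moves are given with and without it.

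DMS marked the A of ITS1 in pre-40S. Over the 54 A the rate averaged 1.02% ± 0.144 with DMS and 0.690% ± 0.111 without it (SD, n = 12 pairs), a difference of 0.333 ± 0.184 percentage points. It was positive in 11 of 12 pairs (exact two-sided sign-flip test over pairs, adjusted p = 0.00391 over the 4 bases). Within set 1 the difference was 0.451 percentage points over 7 pairs, and within set 2 it was 0.240 over 4 pairs, where the exact sign-flip test cannot go below p = 0.125. The 28 C had 0.799% ± 0.185 with DMS and 0.667% ± 0.183 without it (SD, n = 12), a difference of 0.133 percentage points that was positive in 11 of 12 pairs and did not pass the exact sign-flip test (adjusted p = 0.151). Without WT replicate 1 the C difference was 0.194 percentage points and passed it (exact sign-flip test, adjusted p = 0.00195). G and U, which DMS is not read at in this assay, differed by 0.0190 and -0.0433 percentage points (exact sign-flip test, p = 0.842 and p = 0.70), although without WT replicate 1 the G difference was 0.0722 percentage points (exact sign-flip test, adjusted p = 0.0104). The same differences over 18S in these pairs were 0.320 percentage points for A and 0.105 for C.

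Nucleotide by nucleotide, 24 of the 82 members had a higher rate with DMS than without it (edgeR quasi-likelihood test with the pair as a block, adjusted p under 0.05 over all 4 bases of 18S and ITS1), or 29.3%, against 27.7% of all A and C tested and 27.5% of those of 18S. The share in ITS1 thus lay near that of the whole reference. At an unadjusted p under 0.05 in either direction the count was 28, among them C1923, which was lower with DMS (log2 difference -0.52). The calls were 21 of 54 A and 3 of 28 C, or 38.9% and 10.7%, against 37.4% and 14.5% in 18S. Among the other bases 2 of 50 G (G1914 and G1972, named after their values were seen) and 0 of 65 U were higher, against 2.1% and 1.28% in 18S. Called lower with DMS were 1 G and 1 U, and 8 of 65 U had an unadjusted p under 0.05 in either direction. Without WT replicate 1 the ITS1 calls upward were 26 of 54 A, 5 of 28 C, 7 of 50 G and 3 of 65 U. In 18S 223 of 446 A, 67 of 339 C, 28 of 429 G and 9 of 469 U were then higher. The last member inside the threshold was A1871 (adjusted p = 0.0168) and the first outside it was A1872 (adjusted p = 0.0601).

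**Figure D1:**
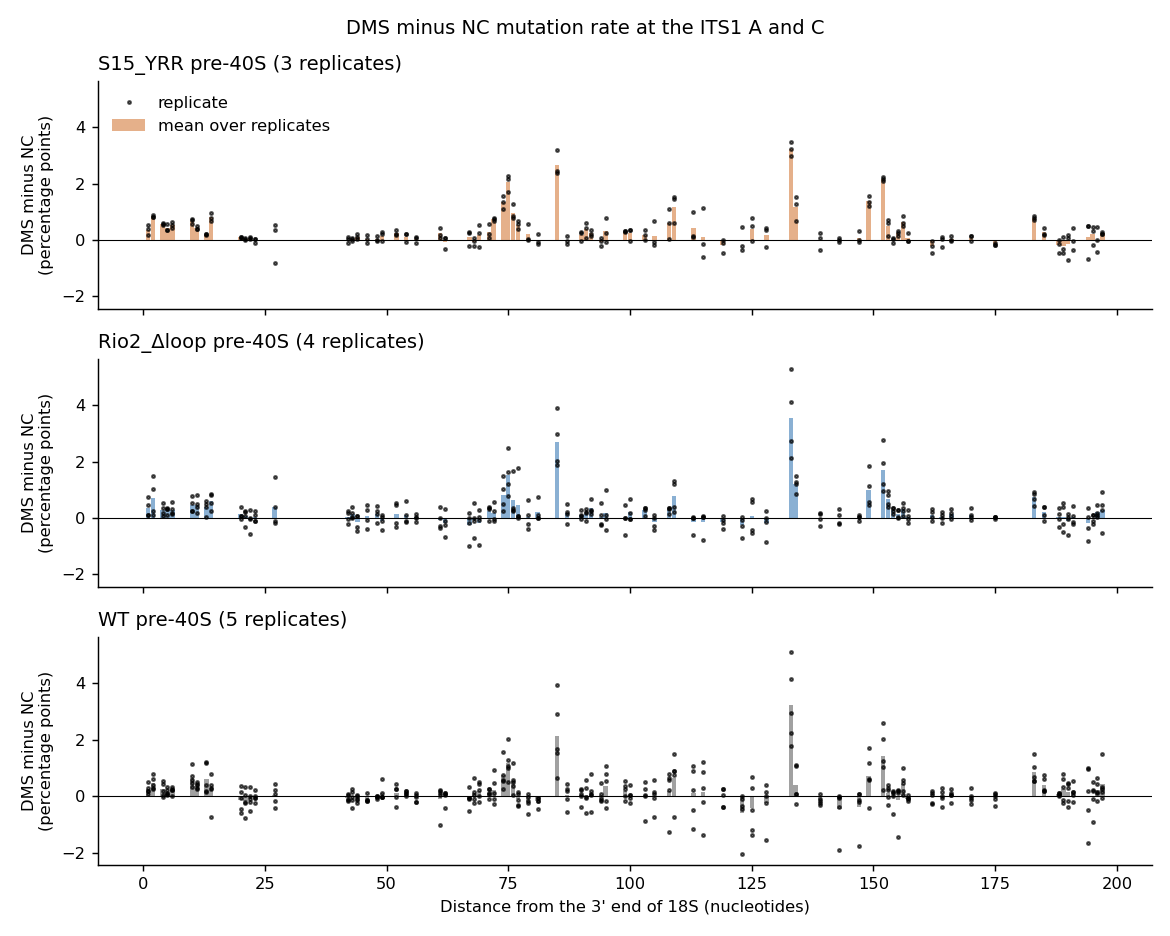
DMS minus NC mutation rate in percentage points (y axis) at the 82 ITS1 A and C against the distance in nucleotides from the 3′ end of 18S (x axis). The panels are S15_YRR, Rio2_Δloop and WT from top to bottom, bars are means over replicates and points are single replicates. The same 4 nucleotides, A1933, A1885, C1952 and C1875, have the highest means in all 3 groups.

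Directly after site D the spacer was marked at every A that could be measured over 14 nucleotides. All 9 A from A1801 to A1814 were higher with DMS than without it, by 0.262 to 0.645 percentage points on average and by 0.64 to 2.20 on the log2 scale (edgeR, adjusted p from 1.71e-08 to 0.00118). In 7 of the 9 the difference was positive in all 12 pairs. Their mean untreated rates ran from 0.0922% at A1806 to 0.355% at A1814, except 1.19% at A1813, where WT replicates 1 and 3 had 6.38% and 2.53%. A1802, the second nucleotide of the spacer, showed the largest difference of the 9, 0.645 ± 0.408 percentage points (SD, n = 12). The signal stopped within a few nucleotides: A1820, A1821, A1822 and A1823 differed by -0.0428 to 0.0179 percentage points and none was called (edgeR, adjusted p from 0.691 to 0.993).

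A1933 carried the largest signal of ITS1. Its rate was 4.12% ± 1.33 with DMS and 0.768% ± 0.399 without it (SD, n = 12), a difference of 2.44 ± 0.15 (SE) on the log2 scale (edgeR, adjusted p = 1.6e-12). DMS minus NC at A1933 was 3.47, 2.99 and 3.23 percentage points in S15_YRR replicates 1 to 3, 2.14, 2.74, 4.12 and 5.28 in Rio2_Δloop replicates 1 to 4, and 4.15, 2.26, 1.78, 5.12 and 2.94 in WT replicates 1 to 5. All 12 pairs were positive, and the S15_YRR values fell inside the ranges of the other groups. Its neighbour A1934 differed by 0.862 percentage points on average.

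A1885 was next, with 3.49% ± 0.985 with DMS and 1.03% ± 0.422 without it (SD, n = 12) and a log2 difference of 1.80 ± 0.15 (SE; edgeR, adjusted p = 3.22e-10). Its DMS minus NC rate was 3.18, 2.39 and 2.45 percentage points in S15_YRR, 2.05, 1.88, 2.98 and 3.90 in Rio2_Δloop, and 0.659, 1.52, 1.69, 3.93 and 2.91 in WT. The groups overlapped, with WT replicate 1 lowest.

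C1952 and C1875 were the most strongly marked C. At C1952 the DMS minus NC rate was 2.1, 2.23 and 2.18 percentage points in S15_YRR, 0.953, 1.21, 1.95 and 2.78 in Rio2_Δloop, and 0.201, 1.03, 1.26, 2.58 and 2.04 in WT. Its log2 difference, 2.59 ± 0.21 (SE; edgeR, adjusted p = 2.25e-10), was the largest of the members, since its untreated rate was only 0.326%. At C1875 the DMS minus NC rate was 2.29, 1.70 and 2.17 percentage points in S15_YRR, 1.63, 0.793, 1.21 and 2.48 in Rio2_Δloop, and 0.519, 1.07, 1.27, 2.03 and 1.01 in WT (log2 difference 1.78 ± 0.18 SE, edgeR, adjusted p = 7.95e-09). Both C were positive in all 12 pairs and the groups overlapped at each.

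The other members among the 10 with the largest differences were A1949, A1874, A1934, A1909, A1983 and A1876, with means of 0.985, 0.920, 0.862, 0.833, 0.799 and 0.681 percentage points. Of the 10, 8 were A and 2 were C. A1983 was positive in all 12 pairs (0.441 to 1.49 percentage points), with 1.2% with DMS and 0.399% without it. A1985, 2 nucleotides on, was called with a smaller difference of 0.30 percentage points (edgeR, adjusted p = 0.00212). Toward site A2, of the 8 members from A1988 to A1997 none was called, with mean differences from -0.0341 to 0.338 percentage points and minimum depths of 1062 to 1556 reads.

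The marked nucleotides were set against base pairs predicted from the sequence alone with RNAfold at 30 °C, a prediction that uses no DMS data. The predicted fold of the spacer part was 1 long hairpin of 74 base pairs (-89.65 kcal/mol) that left the first 16 nucleotides after site D unpaired. Of the 31 members predicted unpaired 22 were called, and of the 51 predicted paired 2 were called, A1871 (partner U1942) and A1983 (partner U1839). The median DMS minus NC rate was 0.394 percentage points over the unpaired and 0.00705 over the paired members. The split held for A alone, with 19 of 26 unpaired and 2 of 28 paired A called, and among C with 3 of 5 unpaired and 0 of 23 paired. These counts describe the members and were not tested, because members next to each other in a loop share reads and structure.

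**Figure D2:**
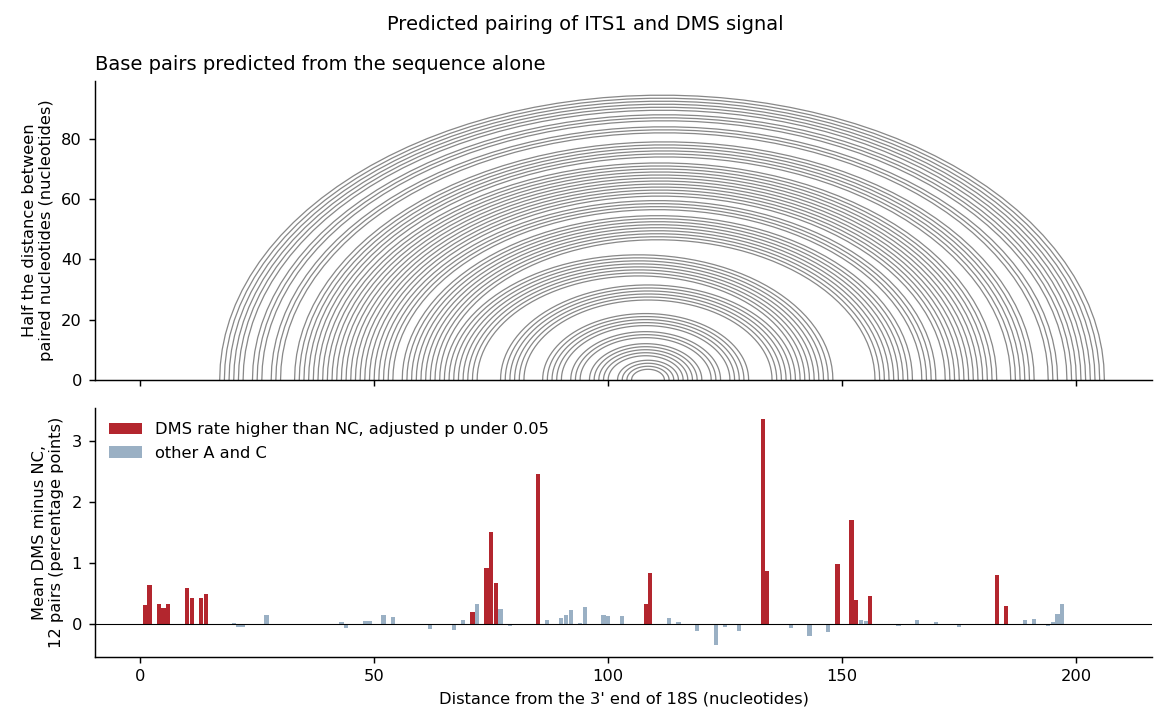
Arcs in the upper panel join nucleotides predicted to pair, with height equal to the halved distance between partners in nucleotides. Bars in the lower panel are the mean DMS minus NC rate in percentage points over 12 pairs at each ITS1 A and C, against the distance from the 3′ end of 18S in nucleotides. Of the 24 called nucleotides 22 stand in gaps where no arc ends, and A1871 and A1983 stand at the ends of arcs.

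Seen on that fold, 23 of the 24 marked nucleotides lay in 6 patches, and A1871, in a predicted pair near the second, was the other. The first was the unpaired start, with 9 of 9 members called. The second was a bulge of 4 nucleotides, G1873 to A1876, where A1874, C1875 and A1876 were all called. The third was an internal loop whose 2 strands are G1883 to A1885 and G1931 to A1934, so that A1885 and A1933, the nucleotides with the largest signals, face each other across it, with A1934 beside A1933. The fourth was the loop of 6 nucleotides at the tip, U1906 to U1911, with A1908 and A1909. The fifth was a bulge of 8 nucleotides, A1949 to A1956, in which A1949, C1952, C1953 and A1956 were called and A1954 and A1955 were not. A1954 differed by 0.0767 percentage points and A1955 by 0.0525 (edgeR, adjusted p = 0.587 and adjusted p = 0.305). At A1955 the difference was positive in 11 of 12 pairs and -1.46 in WT replicate 1. The sixth was the bulge of 2 nucleotides, U1984 and A1985, with A1985 called and A1983 in the pair next to it.

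The 9 unpaired members that were not called were A1954, A1955 and 7 others in predicted gaps of 1 nucleotide. Among those 7, A1827 and A1925 had the highest untreated rates of the 82 members. A1827 had 4.69% ± 0.491 with DMS and 4.54% ± 0.483 without it, and A1925 had 2.63% ± 0.755 with DMS and 2.68% ± 0.599 without it (SD, n = 12). The prediction was repeated with the last 200 nucleotides of 18S attached. All 74 pairs remained, but part of the start of the spacer was then paired too, and 17 of 26 unpaired and 7 of 56 paired members were called. The 5 that moved were A1801, A1802, A1810, A1811 and A1814. Proteins of the particle are in neither prediction.

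**Figure D3:**
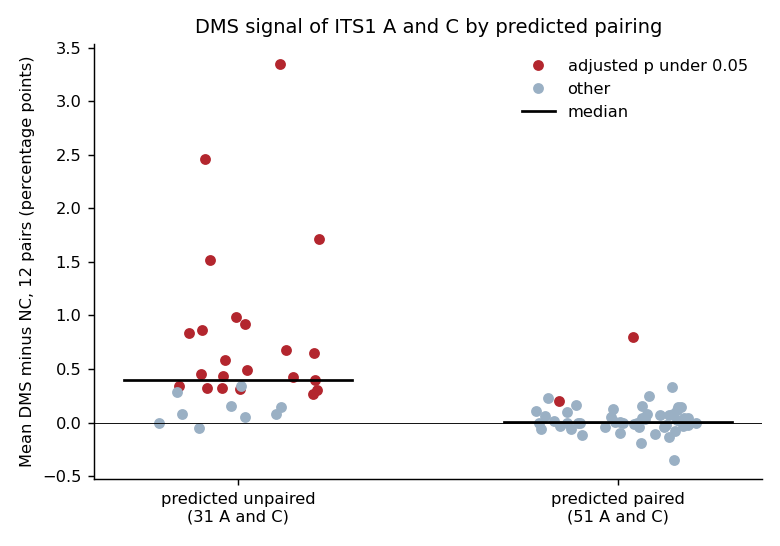
Each point is 1 of the 82 ITS1 A and C, and the y axis is its mean DMS minus NC rate over 12 pairs in percentage points. The columns are the 31 members predicted unpaired and the 51 predicted paired, spread sideways at random, with medians of 0.394 and 0.00705 drawn as bars; red points passed the test of DMS against NC.

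The strongest nucleotides of the spacer were shared by the 3 groups. A1933, A1885, C1952 and C1875 held ranks 1 to 4 in each. Across the 82 members the mean DMS minus NC rates of S15_YRR and Rio2_Δloop had a Pearson correlation of 0.933 and a Spearman correlation of 0.667. For S15_YRR and WT they were 0.889 and 0.617, and for Rio2_Δloop and WT 0.919 and 0.641. Without WT replicate 1 they were 0.918 and 0.681 for S15_YRR and WT, and 0.908 and 0.581 for Rio2_Δloop and WT. These are descriptions across nucleotides, which are not independent and share libraries and untreated backgrounds. Between set 1 and set 2 the Pearson and Spearman values were 0.919 and 0.582. WT replicate 1 against the mean of the other WT pairs gave 0.564 and 0.263, and 15 of the 24 called members had their lowest difference in that pair.

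The question of the mutants was whether S15_YRR or Rio2_Δloop changed DMS reactivity in the spacer. Mutation counts of the DMS libraries were compared between groups at the 127 A and C of the reference whose mean DMS rate was at least 2 times the mean NC rate, of which 16 lie in ITS1. Each library was given a scale, its median ratio of mutation rates over these nucleotides, which entered the fit together with effective depth. Scaled DMS rates below are rates divided by that scale. The 16 were A1802, A1804, A1805, A1806, A1810, A1811 and A1814 at the start, C1875, A1885, A1933, A1934, A1949, C1952, C1953, A1956 and A1983. They passed the filter on signal over all groups together; without Rio2_Δloop C1953 would not have passed it, and without S15_YRR A1814 would not have.

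Between S15_YRR and WT none of the 16 changed (edgeR, 0 of 16 at an adjusted p under 0.05 and 2 at an unadjusted p under 0.05; DESeq2 also gave 0), against 0.787% of all 127 nucleotides called. Their median log2 change was 0.14, against 0.02 over all nucleotides tested. Both of these, A1804 and A1806, lie near site D. At A1804 the scaled DMS rate was 0.602%, 0.642% and 0.620% in S15_YRR and 0.0803%, 0.140%, 0.293%, 0.355% and 0.578% in WT, a log2 change of 0.93 ± 0.39 (SE; edgeR, adjusted p = 0.476). The S15_YRR values lay above all 5 WT values at A1804, though by little over WT replicate 5. At A1806 the scaled DMS rate was 0.650%, 0.429% and 0.644% in S15_YRR and 0.0801%, 0.346%, 0.333%, 0.298% and 0.411% in WT, a log2 change of 0.79 ± 0.35 (SE; edgeR, adjusted p = 0.476). All S15_YRR libraries belong to set 1, and within set 1 the log2 changes were 0.38 at A1804 and 0.64 at A1806 (edgeR, adjusted p = 0.993 for each). With the untreated libraries in the fit they were 0.02 and 0.03.

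Between Rio2_Δloop and WT 1 of the 16 was called, C1953, at 0.87 ± 0.25 (SE) on the log2 scale (edgeR, adjusted p = 0.0225). That is set against 11.0% of all 127 nucleotides called in either direction. C1953 passed the filter on signal only through Rio2_Δloop, so its entry into the test depended on the group in which it was high. Its DMS rate was 5.18 times its NC rate in Rio2_Δloop and 1.38 times in WT, and 1.98 times, under the minimum of 2, over S15_YRR and WT together. With no filter on signal the adjusted p was 0.363 (edgeR, log2 change 0.82), so the call is not support for a change at C1953. C1953 sits in the bulge of 8 nucleotides next to the more strongly marked C1952. Its scaled DMS rate was 0.757%, 0.725%, 0.826% and 0.868% in Rio2_Δloop replicates 1 to 4 and 0.406%, 0.273%, 0.571%, 0.457% and 0.411% in WT replicates 1 to 5. The groups did not overlap on this scale, and S15_YRR had 0.634%, 0.469% and 0.682%, which overlapped WT. As unscaled DMS minus NC rates the values were 0.395, 0.505, 0.817 and 0.952 percentage points in Rio2_Δloop and -0.310, -0.0233, 0.216, 0.408 and 0.286 in WT, where the groups touch at WT replicate 4. Within set 2 the Rio2_Δloop replicates 1 and 2 (0.395 and 0.505) were above WT replicates 2 and 3 (-0.0233 and 0.216), and within set 1 replicates 3 and 4 (0.817 and 0.952) were above WT replicates 4 and 5 (0.408 and 0.286). The untreated rate of C1953 averaged 0.160% in Rio2_Δloop and 0.303% in WT.

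The call of C1953 was not stable. With library set as a term it was 0.84 on the log2 scale (edgeR, adjusted p = 0.0128), and without WT replicate 1 it was 0.85 (adjusted p = 0.0246). It was lost with the untreated libraries in the fit (log2 change 1.46, edgeR, adjusted p = 0.147), in set 1 alone (log2 change 0.96, adjusted p = 0.112) and when Rio2_Δloop replicate 1, 3 or 4 or WT replicate 2 was left out (adjusted p = 0.0649, 0.0533, 0.0727 and 0.0551), with the change between 0.76 and 0.90 in those 4. Its neighbour C1952 gave 0.15 ± 0.20 (SE; edgeR, adjusted p = 0.732), and A1933 and A1885 gave -0.14 ± 0.24 and 0.09 ± 0.12 (adjusted p = 0.766 and adjusted p = 0.712). A1983 gave -0.35 ± 0.20 (SE; edgeR, adjusted p = 0.342), and there too the scaled rates of Rio2_Δloop and WT did not overlap, with WT higher. The median log2 change of the 16 was 0.09.

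Between S15_YRR and Rio2_Δloop none of the 16 changed (edgeR, 0 of 16 at an adjusted and 0 at an unadjusted p under 0.05; DESeq2 also gave 0), against 3.94% of all 127 called. C1953 gave -0.42 ± 0.28 (SE; adjusted p = 0.573) and A1804 0.84 ± 0.42 (adjusted p = 0.387) on the log2 scale. The standard errors over the 16 in these comparisons were between 0.12 and 0.42 on the log2 scale, so changes of that size were not detectable. Larger ones could be missed too: A1804 in S15_YRR against WT was not called at 0.93 ± 0.39 (SE; edgeR, adjusted p = 0.476).

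**Figure D4:**
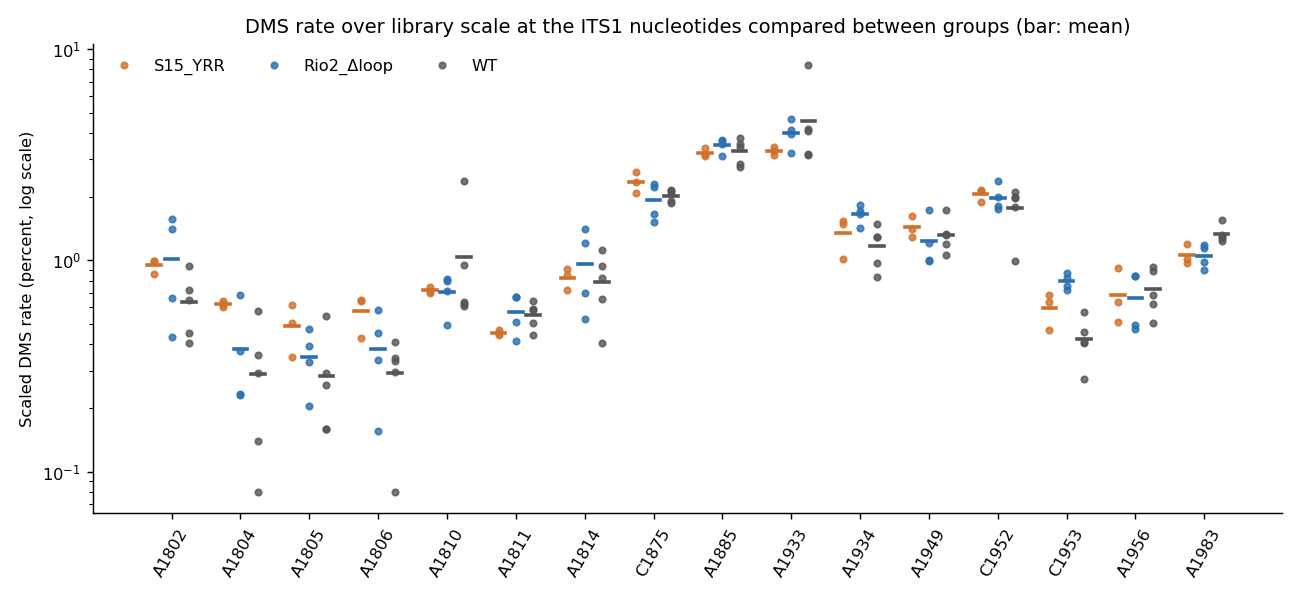
DMS rate over library scale in percent, on a log axis, at the 16 ITS1 nucleotides compared between groups. Points are replicates of S15_YRR, Rio2_Δloop and WT from left to right at each nucleotide and bars are means. At C1953, which passed the filter on signal only through Rio2_Δloop, the 4 Rio2_Δloop points lie above the 5 WT points, 0.725% to 0.868% against 0.273% to 0.571%. At A1983 the WT points lie above those of both other groups.

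The signal of the spacer was also taken as a whole, as the log2 ratio of the mean DMS minus NC rate over the 16 ITS1 nucleotides to that over the 111 of 18S in the same pair. A value below 0 says that these 16 differed less than the 111, not that the whole spacer did: over all A and C with enough depth the ratio was above 0 in 8 of the 11 pairs that have one. The 16 include C1953, which passed the filter on signal only with Rio2_Δloop, and A1814, which passed it only with S15_YRR. Comparisons over the 16 are thus drawn in part from members let in by a mutant group, and their p-values are not support for a difference. The ratio was -0.33, -0.46 and -0.37 in S15_YRR, -0.42, -0.19, -0.08 and -0.29 in Rio2_Δloop, and -0.92, -0.75, -0.65, -0.44 and -0.41 in WT. Over the 16 against the 111, Rio2_Δloop averaged 0.39 above WT on this log2 scale, and only Rio2_Δloop replicate 1 reached into the WT range (exact two-sided permutation test, p = 0.0317, adjusted p = 0.0952 over the 3 comparisons). Without WT replicate 1 the difference was 0.32 (exact permutation test, adjusted p = 0.171). Within set 1 the means were -0.18 in Rio2_Δloop and -0.43 in WT, and within set 2 they were -0.31 in Rio2_Δloop and -0.70 in WT, with 2 replicates each. S15_YRR averaged 0.25 above WT (exact permutation test, p = 0.107, adjusted p = 0.161), and within set 1 the means were -0.38 in S15_YRR and -0.43 in WT. S15_YRR and Rio2_Δloop differed by -0.14 (exact permutation test, p = 0.229). Taken over all A and C, without WT replicate 1, which has no value there, each of the 3 differences turned its direction: -0.28 for Rio2_Δloop against WT, -0.08 for S15_YRR against WT and 0.20 for S15_YRR against Rio2_Δloop. None of the 3 passed the threshold after adjustment on either choice of nucleotides, and 3 against 5, 4 against 5 and 3 against 4 replicates allow a smallest p of 0.0357, 0.0159 and 0.0571.

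The untreated rates are the background that each member is measured against, and they were uneven along the spacer. The highest in ITS1 were at A1827 (4.54%), U1930 (3.41%), A1925 (2.68%) and U1829 (2.67%), named after their values were seen. Over U they differed by set, with means of 1.39% in set 1, 0.752% in set 2 and 0.961% in WT replicate 1, while A averaged 0.679%, 0.630% and 1.01% in the same order. Among the 24 called members 4 had an untreated rate above 1%, and among the 58 others 8 did.

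Read depth was followed across site D and along the spacer to ask how far the precursor sequence was covered. In pre-40S depth did not drop at site D: mean depth over the first 20 nucleotides of ITS1 was 1.74 ± 0.220 times that over the last 20 of 18S in S15_YRR (SD, n = 3), 1.36 ± 0.170 in Rio2_Δloop (n = 4) and 1.42 ± 0.187 in WT (n = 5). It was above 1 in all 24 pre-40S libraries. The ratio also differed by library set, with 1.63 ± 0.169 in set 1 (SD, n = 7 pairs) and 1.27 ± 0.0726 in set 2 (n = 4 pairs), and all S15_YRR pairs belong to set 1. Within set 1 it was 1.56 to 1.98 in S15_YRR, 1.47 and 1.53 in Rio2_Δloop, and 1.56 and 1.66 in WT. The last 20 of 18S were themselves low, at 0.370, 0.486 and 0.497 times the 18S mean in the same order of groups. Single reads that cross the site were not counted. In mature 40S the same ratio was 0.105 ± 0.0148 (SD, n = 3) and below 1 in all 6 libraries.

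Beyond site D the course was uneven, partly in a way that repeated across libraries and partly by library set. Relative to the mean over 18S, depth over the first 53 nucleotides of ITS1 was 0.675 ± 0.0898 in S15_YRR, 0.542 ± 0.173 in Rio2_Δloop and 0.707 ± 0.168 in WT (SD), against 0.00836 ± 0.00240 in mature 40S. A trough followed: of the windows of 20 nucleotides between A1861 and G1980 the one at U1921 to U1940 was lowest in 22 of 24 pre-40S libraries. That range leaves out G1841 to U1860, which in set 2 was about as low, 0.317 ± 0.0725 against 0.315 ± 0.0680 at U1921 to U1940 (SD, n = 4 pairs). In set 1 G1841 to U1860 had 0.722 ± 0.123 (SD, n = 7 pairs). The window U1921 to U1940 holds A1933, and its depth was 0.323 ± 0.0172 in S15_YRR, 0.272 ± 0.0401 in Rio2_Δloop and 0.363 ± 0.0407 in WT. Depth was higher again at G1961 to G1980, with 0.470 ± 0.0605, 0.393 ± 0.115 and 0.619 ± 0.204 in the same order of groups. In the last 12 nucleotides, U2001 to C2012, it was 0.171 ± 0.0369 in S15_YRR, 0.167 ± 0.0765 in Rio2_Δloop and 0.249 ± 0.0865 in WT, and at C2012 single libraries held 102 to 992 reads, where A1801 had 1867 to 15397.

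The place of the highest window went with the library set rather than with the group. In set 2 it was A1801 to A1820 in 8 of 8 libraries, and in set 1 it was further along the spacer in 11 of 14. In WT replicate 1 it was A1861 to G1880 in both libraries, where depth reached 1.67 times the 18S mean. These places are descriptions and were not tested.

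**Figure D5:**
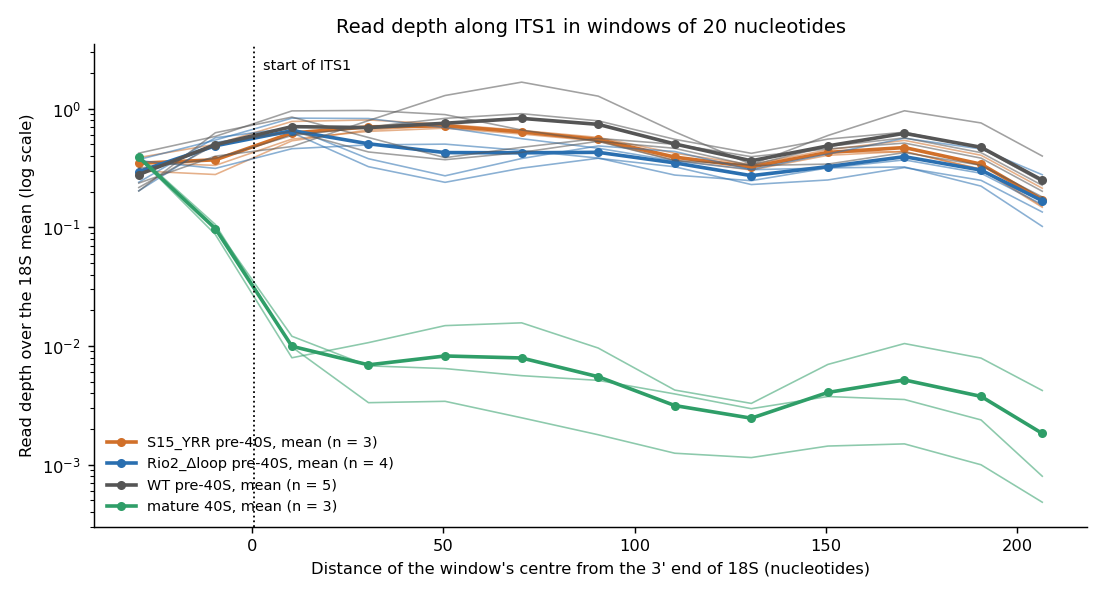
Read depth over the mean of 18S (y axis, log scale) in windows of 20 nucleotides against the distance of the window's centre from the 3′ end of 18S in nucleotides (x axis). Thin lines are replicates, as means of the DMS and NC libraries, and thick lines are group means for S15_YRR, Rio2_Δloop, WT and mature 40S. The pre-40S lines stay between 0.102 and 1.67 over ITS1, and the mature 40S lines drop at the start of ITS1 to between 0.00796 and 0.0121.

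The fall of depth along the spacer did not differ detectably between groups. Depth over the last 53 nucleotides of ITS1 divided by that over the first 53 was 0.521, 0.529 and 0.516 in S15_YRR, 0.600, 0.623, 0.488 and 0.567 in Rio2_Δloop, and 0.994, 0.673, 0.625, 0.696 and 0.462 in WT. On the log2 scale S15_YRR lay at -0.36 relative to WT (exact two-sided permutation test, p = 0.143), Rio2_Δloop at -0.24 relative to WT (p = 0.286) and S15_YRR at -0.12 relative to Rio2_Δloop (p = 0.229), with an adjusted p of 0.286 for each. Without WT replicate 1, whose ratio was the highest, the differences from WT were -0.22 for S15_YRR and -0.10 for Rio2_Δloop (exact permutation test, adjusted p = 0.343 and adjusted p = 0.514). Within set 1 the mean log2 ratios were -0.94 in S15_YRR, -0.93 in Rio2_Δloop and -0.82 in WT, and within set 2 they were -0.71 in Rio2_Δloop and -0.62 in WT. In mature 40S the ratio was between 0.188 and 0.701 on far fewer reads.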

How the data were processed

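Members and lists were chosen with earlier results of these data known. The authors deposited 1 profile per library with mutation counts, read depth and effective depth as counts, and a mutation rate as a fraction; rates recomputed from the counts differed from the deposited fraction by at most 5e-07. The aligner, caller and build are not given in the sources used here. Rates are printed as percent and their differences as percentage points.

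Positions needed an effective depth of at least 1000 in 24 libraries. DMS against NC was tested with edgeR 4.0.16 (R 4.3.3), a quasi-likelihood F test on mutation counts with log effective depth as offset, the replicate pair as a block and a mean of at least 5 mutations. Groups were compared by edgeR on the 12 DMS libraries in 1 fit, with no block. P-values were adjusted by Benjamini-Hochberg at 0.05 over all nucleotides tested, 18S included. DESeq2 1.42.0 was an alternative. Single values per replicate were tested by exact permutation in scipy 1.17.1 (Python 3.11.15, numpy 2.4.6, pandas 2.3.3), pairing was predicted with ViennaRNA 2.7.2, and figures used matplotlib 3.10.9. The fits were tested on simulated data. Library sets were found by clustering untreated rates over 1666 positions of 18S, joining pairs at a correlation of at least 0.7. Replicate numbers did not pair the groups: same-numbered libraries deviated with correlations between -0.223 and 0.248. Named nucleotides are those past the threshold in a group comparison, the 10 with the largest DMS minus NC rate, and members in the first 20 positions and last 20 measured ones. Reads carry no molecular identifiers, so depth covers counting error only. A deposited table of normalized 18S signal holds no ITS1 and was not used.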

Additional observations from a re-analysis of the deposited data

Results flagged for a closer look

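Of 74 sets of 4 or 5 replicate values that were examined, 4 held a replicate far from the others by Dixon's gap criterion, which chance meets in about 1 of 20 sets. At A1805 the DMS minus NC rate of Rio2_Δloop replicate 2 was 0.1018 percentage points, and the other Rio2_Δloop replicates lay between 0.3123 and 0.3545. At A1876, in the bulge of 4 nucleotides, Rio2_Δloop replicate 4 had 1.668 percentage points, and the others lay between 0.2548 and 0.3759. At A1997, the member nearest to site A2, WT replicate 4 had 1.513 percentage points, and the others lay between -0.057 and 0.3279. Over the U of ITS1 the mean DMS minus NC rate of WT replicate 1 was -0.6225 percentage points, and the other WT replicates lay between -0.0973 and 0.0911. The cause of these was not tested.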

How the results depend on the processing

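Of 197 values recomputed under alternatives for 13 results, 171 were rated the same. For a difference this means the same direction and the same side of the threshold. Counts of calls have neither, and a count rated the same could still differ from the main one, as the ranges below show. The count of A and C higher with DMS was 24 and ranged from 19 to 33 under the other settings and from 23 to 31 with 1 pair left out, except that a depth minimum of 2000 left 31 members and 5 calls; it was 20 with no replicate block and 24 by DESeq2. The A difference within set 2 was 0.2403 percentage points (exact sign-flip test, adjusted p = 0.25, with a smallest possible p of 0.125). The C difference passed at a depth minimum of 2000 (0.2325), in set 1 (0.2298) and without WT replicate 1, and ran from 0.1108 to 0.1939 with 1 pair left out. The single ITS1 call between Rio2_Δloop and WT, C1953, became 0 calls with no filter on signal, no library scale, the untreated libraries in the fit or set 1 alone (edgeR, adjusted p = 0.363, 0.200, 0.147 and 0.112), and 0 to 1 with 1 replicate left out; the log2 change was between 0.76 and 1.46 in all of these. Without a library scale the median of all tested nucleotides moved to 0.28 between S15_YRR and WT, and with a scale from the 90th to 98th percentile to -0.16 between S15_YRR and Rio2_Δloop. With the replicate number as a replicate block, S15_YRR against WT gave 2 ITS1 calls of 16, with 5 of all 127 nucleotides called. The 2 were A1804 and A1805 (edgeR, log2 change 1.67 and 1.10, adjusted p = 0.0197 and adjusted p = 0.0487). The ITS1 counts of the other comparisons did not move, and the replicate numbers are shared labels and no pairing.

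Taken over all A and C in place of those with signal, the log2 ratio of ITS1 to 18S turned its direction in the 3 comparisons, to -0.0849 for S15_YRR and -0.2814 for Rio2_Δloop against WT and 0.1965 for S15_YRR against Rio2_Δloop, without WT replicate 1, whose mean is below 0 and has no logarithm. The fall of depth between the first and last 20 positions gave 0.1778 for S15_YRR against Rio2_Δloop, opposite in direction to the blocks of 53. None of these 4 passed the threshold before or after. For these settings the cause was not tested.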
